A study of Mus musculus with 9 samples.

Results

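Cyclin D, CDK4/6 and the RB family form the switch that holds a cell before DNA replication or lets it proceed, and 10 of its genes were followed in mouse prostate cancer cells given neuregulin 1 (NRG1), a ligand of the receptor HER3. The 10 genes were the rows of the deposited count table, out of 15552 gene rows, that carried the symbols of the D-type cyclins (Ccnd1, Ccnd2, Ccnd3), their kinases (Cdk4, Cdk6), inhibitors of those complexes (Cdkn1b, Cdkn2c) and the RB family (Rb1, Rbl1, Rbl2). The cells were MyC-CaP, an epithelial-like line from a prostate tumor driven by a MYC transgene. All 9 libraries came from MyC-CaP cells that were first kept in medium without serum and without calcium for 6 to 12 h, and the labels give 0, 12 or 24 h of recombinant NRG1 (15 ng/mL), with 3 biological replicates per time. The 0 h libraries carry the label NRG1-treated as well, and none of the 9 libraries is labelled as 12 or 24 h without NRG1. Time with NRG1 and time in the starvation medium cannot be told apart. The cells are 1 line plated in wells, so p-values measure the spread between cultures of that line.

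Growth factor signals act on this switch mainly through the D-type cyclins, which bind CDK4 or CDK6, and the active kinase phosphorylates the RB family proteins pRB, p107 and p130. Unphosphorylated RB family proteins hold down genes bound by E2F transcription factors, many of which encode the DNA replication machinery, and p130 does so in quiescent cells as part of a complex called DREAM. The inhibitors set the threshold: p27 (Cdkn1b) binds cyclin-CDK complexes, and p18 (Cdkn2c) belongs to the INK4 proteins, which bind CDK4 and CDK6 directly.

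Total counts per library ranged from 28467089 to 39239760, and 11373 genes, including 9 of the 10 described here, were deep enough to test. The share of counts from mitochondrial genes moved with time, at 1.41% to 1.498% at 0 h, 1.12% to 1.18% at 12 h and 1.21% to 1.36% at 24 h without overlap between times, and its part in the results below was not tested. Replicate 3 at 12 h stood further from its group than the other libraries did: its chi-square per degree of freedom was 9.92 against replicate 1 and 10.1 against replicate 2, while replicates 1 and 2 gave 4.26. Of 6 epithelial markers, Krt8 was at 17.2 to 26.2 CPM (counts scaled to library size), while Epcam was at 0 in 8 of the 9 libraries and Cdh1 and Cldn7 were at or near 0. Summed leukocyte markers reached at most 1.11 CPM and summed endothelial markers at most 0.299 CPM. Among 5 fibroblast markers the sum was 15.3 to 18.0 CPM and came almost wholly from Pdgfra. In such bulk RNA, fewer cells of a type and less RNA per cell cannot be told apart.

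To place the 10 genes relative to each other, levels were divided by exonic length (CPM per kb). At 0 h the order of these levels was Cdk4 (108 ± 0.945 CPM per kb, SD, n = 3), Cdkn1b (59.3 ± 1.61), Ccnd1 (44.4 ± 1.48), Cdkn2c (27.1 ± 1.31), Cdk6 (10.7 ± 0.423), Rbl2 (9.15 ± 0.384), Ccnd3 (7.80 ± 0.216), Rb1 (4.52 ± 0.400) and Rbl1 (3.16 ± 0.371), with Ccnd2 at 0. No pair of neighbors in that order overlapped between libraries. By 12 h Ccnd3 (8.76 ± 0.228 CPM per kb) stood above Rbl2 (7.93 ± 0.393), and Rbl1 (5.17 ± 0.676) stood above Rb1 (4.42 ± 0.171), although the Rbl1 and Rb1 ranges overlapped at that time. At 24 h Rbl2 (8.34 ± 0.192 CPM per kb) was again above Ccnd3 (7.97 ± 0.131), and Rbl1 (5.20 ± 0.0953) stayed above Rb1 (4.20 ± 0.333) with no overlap. The level of Cdk6 depends on the length used, since its exons span 13.989 kb in the annotation and its coding sequence 978 bases. Other genes are affected too, such as Ccnd3 (8.775 kb of exons, 993 coding bases) and Rbl2 (7.558 kb, 3405 coding bases). Cdk4 has 3.249 kb of exons and 909 coding bases, Cdkn1b 4.552 kb and 591, and Cdkn2c 2.686 kb and 504. The order of Ccnd3 and Rbl2, of Cdk4 and Cdkn1b, and of Cdkn2c and Cdk6 therefore rests on the exonic length.

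**Figure D1:**
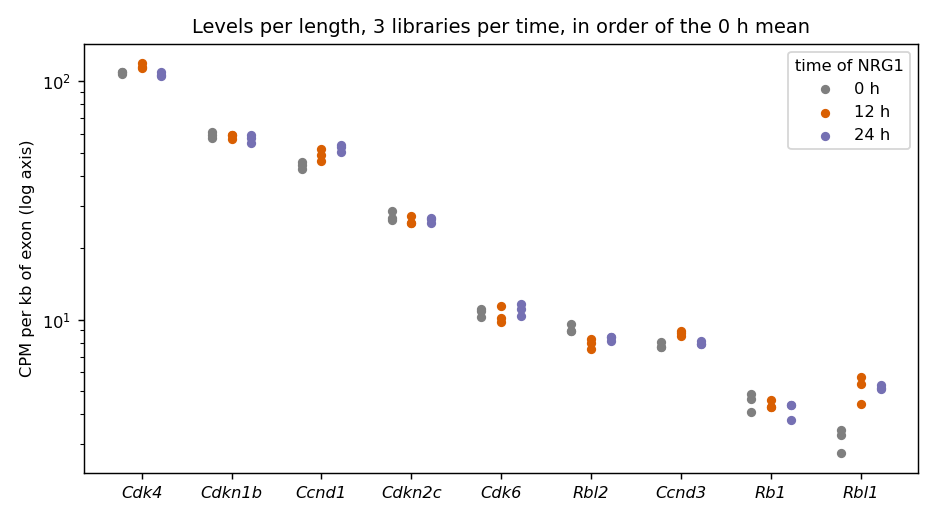
Level of each gene in each library as CPM per kb of exon (log axis), ordered by the 0 h mean, with 3 libraries per time in gray (0 h), orange (12 h) and purple (24 h). Cdk4 is highest at 108 CPM per kb at 0 h, and Rbl1 is the lowest at 0 h but lies above Rb1 at 24 h. Ccnd2, at 0 in 7 of 9 libraries, is not drawn.

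To determine which genes differed among the 3 times at all, all times were tested at once with edgeR's quasi-likelihood F-test. Rbl1 (adjusted p = 2.30e-05), Ccnd1 (adjusted p = 0.00239), Rbl2 (adjusted p = 0.0100), Ccnd3 (adjusted p = 0.0104) and Cdk4 (adjusted p = 0.0434) passed at an adjusted p of at most 0.05, which is 5 of the 9 tested. Over all genes the share that passed was 27.4%. Cdk6, Cdkn1b, Cdkn2c and Rb1 did not pass. The Cdk4 result was the least firm, since it remained in 2 of 9 fits that each left out 1 library (adjusted p = 0.0215 to 0.206). Rbl2 lost the call without replicate 1 at 0 h (adjusted p = 0.0507) and Ccnd3 without replicate 2 at 12 h (adjusted p = 0.0556).

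After 12 h of NRG1, Ccnd1, Ccnd3 and Rbl1 were higher than at 0 h and Rbl2 was lower, by edgeR's quasi-likelihood F-test. These 4 are 44.4% of the 9 genes tested, against 25.5% of all genes tested (13.6% higher, 11.9% lower). After 24 h, Ccnd1 and Rbl1 passed, both higher, which is 22.2% against a background of 17.4% (9.67% higher, 7.76% lower). A change of at least 1.5-fold was reached by Rbl1 alone at both times, where the background shares were 2.29% at 12 h and 2.27% at 24 h. Between 12 h and 24 h none of the 9 passed, against 5.03% of all genes (1.97% higher, 3.06% lower). Of them 3 had an unadjusted p under 0.05 (Ccnd1, Ccnd3 and Cdk4), and DESeq2 called 1, Cdk4. No share over all genes was taken for these last counts. The median log2 fold change over the 9 genes was -0.011 at 12 h and -0.021 at 24 h, beside -0.0028 and -0.0065 over all genes. Both comparisons use the same 0 h libraries.

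**Figure D2:**
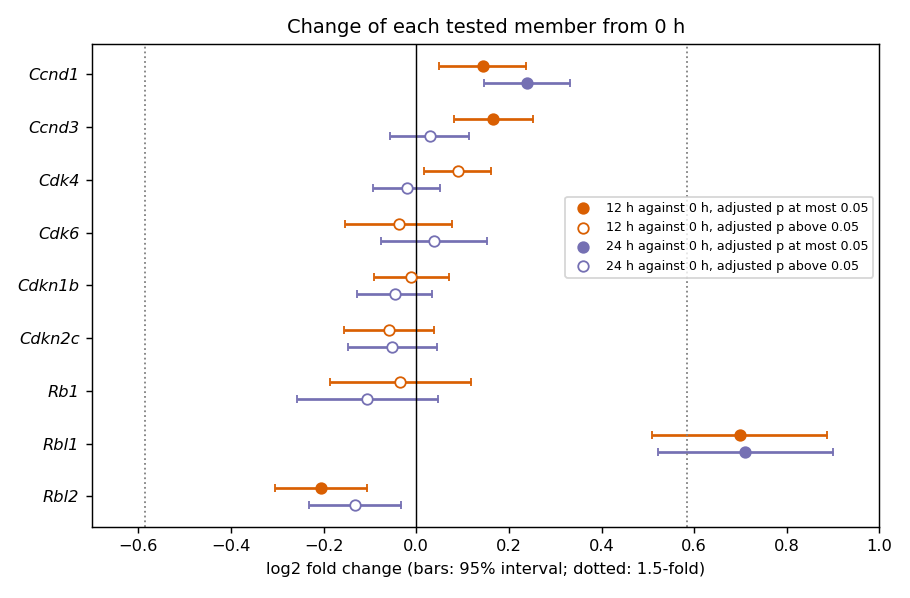
Log2 fold change of each of the 9 tested genes at 12 h (orange) and 24 h (purple) against 0 h, with 95% intervals as bars, filled points for an adjusted p of at most 0.05 and dotted lines at 1.5-fold in either direction. Rbl1 is the 1 gene whose points lie beyond the dotted line, at 0.70 and 0.71.

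Among the D-type cyclins, the regulatory subunits that turn on CDK4 and CDK6, Ccnd1 carried most of the RNA and was higher at both later times. Ccnd1 (ENSMUSG00000070348.5, GRCm38 chr7:144929931-144939925) was at 210.1, 202 and 216 CPM in replicates 1 to 3 at 0 h. Its levels were 230.1, 245 and 218 CPM at 12 h and 249, 237 and 254 CPM at 24 h. All 6 later libraries were above all 0 h libraries, by a narrow margin in replicate 3 at 12 h. The log2 fold change was 0.14 ± 0.044 (SE) at 12 h (1.10-fold, adjusted p = 0.0250, edgeR) and 0.24 ± 0.044 at 24 h (1.18-fold, adjusted p = 0.00116). The step from 12 h to 24 h was 0.095 (95% interval 0.0018 to 0.19), and it did not pass (adjusted p = 0.239). That 12 h result did not pass after leaving out replicate 2 at 0 h (0.12, adjusted p = 0.0990), replicate 1 at 12 h (0.15, adjusted p = 0.0571) or replicate 2 at 12 h (0.099, adjusted p = 0.138), and the 24 h result held in all 9 such fits. On the opposite strand, LTO1 overlaps 23.4% of the Ccnd1 exons, and its own log2 fold change was -0.0024 at 12 h and -0.027 at 24 h, neither of which passed.

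Ccnd3 was higher at 12 h and then near its 0 h level at 24 h. Ccnd3 (ENSMUSG00000034165.16, chr17:47505051-47599691) was at 67.3, 70.7 and 67.5 CPM at 0 h, at 77.4, 78.6 and 74.7 CPM at 12 h, and at 69.2, 69.3 and 71.2 CPM at 24 h. The 12 h libraries were above both other groups without overlap. Its log2 fold change was 0.17 ± 0.040 at 12 h (1.12-fold, adjusted p = 0.00609) and 0.029 ± 0.040 at 24 h (adjusted p = 0.684). From 12 h to 24 h the difference was -0.14 ± 0.040 (95% interval -0.22 to -0.052), which did not pass (adjusted p = 0.0603) but passed without replicate 3 at 12 h (-0.16, adjusted p = 0.0251). Ccnd2 (ENSMUSG00000000184.12, chr6:127125162-127152193), the third D-type cyclin, had 0 counts in 7 libraries, 1 count in replicate 2 at 12 h and 3 counts in replicate 2 at 24 h. A count of 0 allows up to 3 counts, or 0.0765 to 0.105 CPM depending on the library, and this limit covers counting error only. Of the summed D-type cyclin RNA per kb, the Ccnd1 share was 85.0% ± 0.761 (SD, n = 3) before NRG1, then 84.8% ± 0.423 and 86.8% ± 0.323 at the later times.

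Neither kinase gene, the catalytic partners of the D-type cyclins, passed in a comparison of 2 times. Cdk4 (ENSMUSG00000006728.12, chr10:127063534-127067920) was at 349, 353 and 355 CPM at 0 h, at 373, 385 and 367 CPM at 12 h, and at 343, 344 and 355 CPM at 24 h. Its 12 h libraries did not overlap either other group, while the 0 h and 24 h ranges did overlap. Ranges without overlap between 12 h and 0 h were seen for 5 of the 9 genes (4 higher and 1 lower), against 38.4% of all genes tested (19.9% higher, 18.5% lower). Between 24 h and 12 h this held for 2, Ccnd3 and Cdk4, both lower at 24 h, against 25% of all genes (11.4% higher, 13.6% lower). The log2 fold change of Cdk4 at 12 h was 0.089 ± 0.034 (95% interval 0.017 to 0.16, adjusted p = 0.0649), and it was -0.021 ± 0.034 at 24 h (adjusted p = 0.732). The 12 h difference passed with DESeq2 (0.090, adjusted p = 0.0288) and without replicate 3 at 12 h (0.11, adjusted p = 0.0281), and the difference of -0.11 from 12 h to 24 h (adjusted p = 0.0724) likewise passed with DESeq2 (adjusted p = 0.0198) and without that library (-0.13, adjusted p = 0.0352). Tspan31, on the opposite strand, overlaps 19.7% of the Cdk4 exons, and its log2 fold change of 0.013 at 12 h did not pass (adjusted p = 0.867).

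Cdk6 (ENSMUSG00000040274.11, chr5:3341485-3531008) was at 144, 155 and 151 CPM at 0 h, at 142, 137 and 160.2 CPM at 12 h, and at 145, 162 and 155 CPM at 24 h. The 3 groups overlapped. Its log2 fold change was -0.038 at 12 h (95% interval -0.15 to 0.077, adjusted p = 0.658) and 0.038 at 24 h (95% interval -0.077 to 0.15, adjusted p = 0.692). Per kb, Cdk4 accounted for 91.0% ± 0.268 of the 2 kinases at 0 h, 91.7% ± 0.808 at 12 h and 90.7% ± 0.469 at 24 h.

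Neither inhibitor passed in any comparison. Cdkn1b, which encodes p27 (ENSMUSG00000003031.14, chr6:134920401-134925513), was at 269, 278 and 263 CPM at 0 h, at 271, 261 and 272 CPM at 12 h, and at 263, 270.4 and 251 CPM at 24 h. Its groups overlapped at all times. The log2 fold change was -0.011 at 12 h (95% interval -0.091 to 0.070, adjusted p = 0.874) and -0.047 at 24 h (95% interval -0.13 to 0.033, adjusted p = 0.450). The p18 gene Cdkn2c (ENSMUSG00000028551.14, chr4:109660876-109667189) was at 71.5, 70.2 and 76.8 CPM at 0 h, at 68.4, 73.2 and 68.3 CPM at 12 h, and at 70.9, 68.4 and 71.5 CPM at 24 h. These ranges overlapped as well. Its log2 fold change was -0.059 at 12 h (95% interval -0.16 to 0.038, adjusted p = 0.382) and -0.052 at 24 h (95% interval -0.15 to 0.045, adjusted p = 0.495). The ratio of the Ccnd1 level to the Cdkn1b level, per kb, was 0.750 ± 0.0451 (SD, n = 3) before NRG1, then 0.834 ± 0.0663 and 0.914 ± 0.0658. Its 12 h libraries (0.820, 0.907 and 0.776) overlapped those at 0 h (0.754, 0.703 and 0.793) and at 24 h (0.917, 0.847 and 0.979). The ratio of Cdk4 to Cdkn1b was 1.83 ± 0.0556, 1.96 ± 0.0926 and 1.86 ± 0.107 at these times. That of Cdk4 to Cdkn2c was 4.01 ± 0.173, 4.43 ± 0.0780 and 4.09 ± 0.0814.

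**Figure D3:**
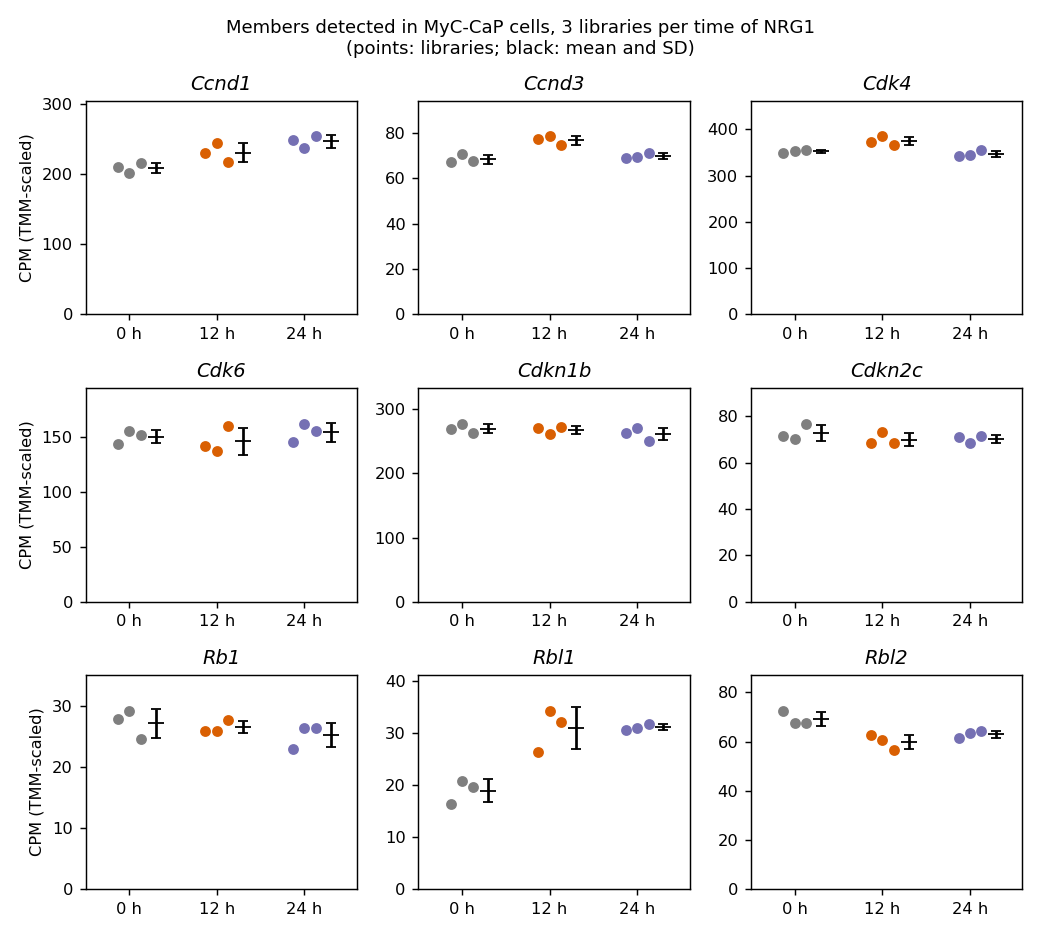
CPM of each of the 9 tested genes in every library (points, replicates 1 to 3 from left to right) at 0, 12 and 24 h, with the mean and SD of 3 libraries in black, each axis starting at 0. Rbl1 goes from a mean of 19.0 CPM at 0 h to 31.0 and 31.2 CPM, Rbl2 from 69.2 to 59.9 and 63.0 CPM, and Cdkn1b stays between 251 and 278 CPM in all libraries.

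The RB family genes, which encode the proteins that the cyclin D kinases phosphorylate, did not move together. Rbl1 rose at both times, Rbl2 fell at 12 h, and Rb1 did not pass. Rbl1 encodes p107, an RB family protein typical of proliferating cells, and lies on GRCm38 chr2:157145893-157204534 on the minus strand (ENSMUSG00000027641.13). Rbl2 encodes p130, which predominates in resting cells, and lies on chr8:91070057-91123844 on the plus strand (ENSMUSG00000031666.15). To show the control regions of the genes that moved in opposite directions, the 250 bases before each start are printed from the RefSeq table of GRCm38.p6, at chr2:157204535-157204784 (minus strand) for Rbl1 and chr8:91069807-91070056 (plus strand) for Rbl2. Capitals mark letters searched on both strands as either of 2 motifs: the E2F letters TTTCGCGC, TTTGGCGC, TTTCCCGC or TTTGCCGC, and the CHR letters TTTGAA, which stand on the other strand in Rbl2. Neither motif contains the other.
Rbl1: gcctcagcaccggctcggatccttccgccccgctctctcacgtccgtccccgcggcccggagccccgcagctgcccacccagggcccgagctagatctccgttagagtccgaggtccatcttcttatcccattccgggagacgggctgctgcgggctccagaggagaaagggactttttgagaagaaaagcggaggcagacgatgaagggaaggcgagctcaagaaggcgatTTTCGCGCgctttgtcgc
Rbl2: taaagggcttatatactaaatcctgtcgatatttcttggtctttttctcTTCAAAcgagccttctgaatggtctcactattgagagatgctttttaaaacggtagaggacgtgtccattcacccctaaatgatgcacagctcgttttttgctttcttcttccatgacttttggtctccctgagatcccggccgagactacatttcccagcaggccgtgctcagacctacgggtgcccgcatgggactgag

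The Rbl1 stretch held the E2F letters with their first base at position -18 from the start, and the Rbl2 stretch held the CHR letters at -201 and no E2F letters. The Rbl1 stretch was 63.6% G or C with 24 CG pairs, and the Rbl2 stretch was 46.8% G or C with 10 CG pairs. RefSeq windows from 250 bases before to 50 bases after the start were found for 7 of the 10 genes, namely Ccnd3, Cdk4, Cdk6, Cdkn1b, Cdkn2c, Rbl1 and Rbl2, and Rbl1 was the 1 with E2F letters. Of all 32851 windows, 2.27% held E2F letters and 17.9% held CHR letters; over the 12114 genes of the count table with a window, 4.23% held E2F letters. A match describes letters in a window and does not show that a factor binds there. For comparison, the same 8 letters as in Rbl1 also stood in windows of genes from the lists described below. Mcm6 and Tfdp1 held them on the other strand. Mcm5 (chr8:75109345-75109374, plus strand, first base at -153) and Mcm7 (chr5:138171849-138171878, minus strand, first base at 17), subunits of the replicative helicase, held them as in Rbl1. These sites are shown with that of Rbl1 at chr2:157204534-157204563 (minus strand). Capitals mark the shared 8 letters only. The Mcm5 stretch also holds the E2F letters GCGCCAAA of the other strand (first base at -149), which overlap them and are partly in lower case.
Rbl1: aagaaggcgatTTTCGCGCgctttgtcgcg
Mcm5: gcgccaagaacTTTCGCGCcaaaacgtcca
Mcm7: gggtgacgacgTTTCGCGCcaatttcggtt

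Rbl1 was at 16.5, 20.7 and 19.7 CPM at 0 h, at 26.5, 34.3 and 32.1 CPM at 12 h, and at 30.7, 31.0 and 31.8 CPM at 24 h. All 6 later libraries were above all 0 h libraries, and replicate 1 was the lowest of its group at each time. The log2 fold change was 0.70 ± 0.090 (SE) at 12 h (1.62-fold, adjusted p = 2.97e-05, edgeR) and 0.71 ± 0.089 at 24 h (1.64-fold, adjusted p = 2.85e-05). Among 11373 genes this placed Rbl1 at rank 129 by size of increase at 12 h and at rank 146 at 24 h. The level at 24 h differed from that at 12 h by 0.013 (95% interval -0.17 to 0.19, adjusted p = 0.954). Both calls at 1.5-fold held in every alternative fit that was run, where the log2 fold change was 0.61 to 0.80 at 12 h and 0.63 to 0.78 at 24 h.

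Rbl2 was at 72.5, 67.4 and 67.6 CPM at 0 h, at 62.5, 60.5 and 56.7 CPM at 12 h, and at 61.4, 63.6 and 64.1 CPM at 24 h. All 6 later libraries were below all 0 h libraries. At 24 h, 3 of the 9 genes had ranges apart from 0 h (Ccnd1 and Rbl1 higher, Rbl2 lower), against 35.5% of all genes (17.6% higher, 17.9% lower). Rbl2 had a log2 fold change of -0.21 ± 0.047 at 12 h (0.867-fold, adjusted p = 0.00409) and -0.13 ± 0.047 at 24 h (95% interval -0.23 to -0.033), which did not pass (adjusted p = 0.0617). The 24 h value passed when the fit held only the 2 groups compared (adjusted p = 0.0467) or lacked replicate 3 at 12 h (adjusted p = 0.0391). Other genes on the opposite strand overlap 21.0% of the Rbl2 exons. Aktip covers 9.17% of them, and Gm45464, which also overlaps them, was not tested. The log2 fold change of Aktip was 0.14 at 12 h (adjusted p = 0.0809) and 0.17 at 24 h (adjusted p = 0.0430).

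Rb1 (ENSMUSG00000022105.6, chr14:73183673-73325822) encodes pRB, the retinoblastoma protein. Its levels were 27.8, 29.2 and 24.5 CPM at 0 h, 26.0, 26.0 and 27.8 CPM at 12 h, and 22.9, 26.4 and 26.4 CPM at 24 h. The groups overlapped at all times. Rb1 had a log2 fold change of -0.034 at 12 h (95% interval -0.19 to 0.12, adjusted p = 0.775) and -0.11 at 24 h (95% interval -0.26 to 0.047, adjusted p = 0.354). Rcbtb2 and Lpar6 lie on the opposite strand over 14.9% of the Rb1 exons, and Rcbtb2 fell by 0.23 on the log2 scale at 12 h (adjusted p = 0.0456) and by 0.29 at 24 h (adjusted p = 0.0186).

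As shares of the summed RB family RNA per kb, Rbl1 made up 18.8% ± 2.26 (SD, n = 3) before NRG1, then 29.5% ± 3.06 and 29.3% ± 0.650. Rbl2 made up 54.4% ± 2.44, 45.3% ± 2.97 and 47.0% ± 0.510 at these times. Rb1 made up 26.8% ± 1.64, 25.2% ± 1.26 and 23.6% ± 1.12. Since these shares are parts of a whole, a higher Rbl1 level lowers the Rb1 and Rbl2 shares even where their own levels stay the same. The Rbl2 share was the highest of the 3 at each time, and the mean Rbl1 share was below that of Rb1 at 0 h and above it at 12 h, where their ranges overlapped, and at 24 h. The ratio of the Rbl1 level to the Rbl2 level, per kb, was 0.286, 0.388 and 0.367 in the 0 h libraries, 0.534, 0.715 and 0.714 at 12 h, and 0.631, 0.614 and 0.626 at 24 h. Every later library had a higher ratio than every 0 h library.

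**Figure D4:**
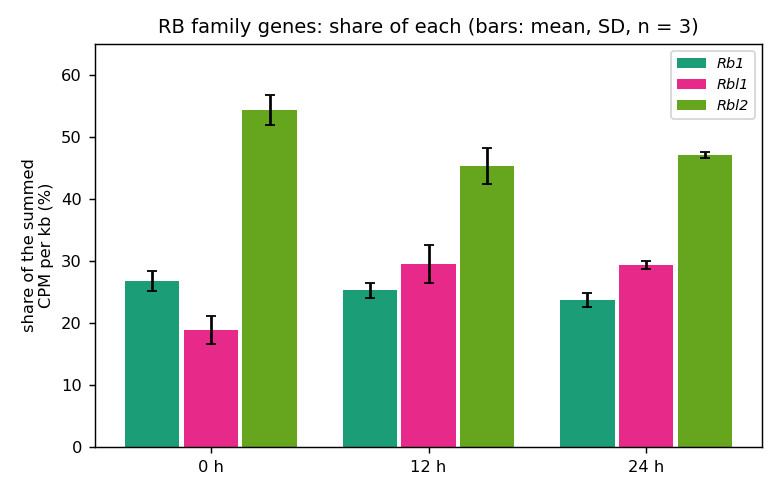
Share of Rb1 (teal), Rbl1 (pink) and Rbl2 (green) in the summed CPM per kb of the RB family (percent, from 0) at each time, as the mean with SD of 3 libraries. Over the times Rbl1 takes 18.8%, 29.5% and 29.3%, and Rbl2 54.4%, 45.3% and 47.0%.

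The other genes around the switch were then counted in 5 lists written from general knowledge, with earlier results of these data known. Genes that are not among the 2 with the largest change of their list, and those that did not pass, were named after their values were seen. The background shares given above for each comparison apply to the counts by edgeR's adjusted p. No share over all genes was taken for counts by DESeq2 or at an unadjusted p under 0.05, so those counts have no background beside them.

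Of 5 other CDK inhibitor genes, 2 were higher at 12 h and 2 at 24 h, and none was lower (by DESeq2 also 2, 2 and none lower; 3 were higher and none lower at an unadjusted p under 0.05 at each time). The list median log2 fold change was 0.28 at 12 h and 0.26 at 24 h. Cdkn1a, which encodes p21, an inhibitor that also responds to p53, was at 49.1, 52.8 and 40.1 CPM at 0 h, at 82.8, 74.0 and 98.5 CPM at 12 h, and at 54.3, 57.7 and 58.4 CPM at 24 h. It rose at 12 h (0.84 ± 0.093, 1.80-fold, adjusted p = 7.83e-06) and fell from 12 h to 24 h by 0.58 on the log2 scale (adjusted p = 0.00152). Its log2 fold change at 24 h against 0 h was 0.26 (adjusted p = 0.0653). That value ran from 0.16 to 0.36 with 1 library left out, and passed in 6 of 15 alternative fits, among them those without replicate 2 at 0 h (0.36, adjusted p = 0.0241), replicate 2 at 12 h (adjusted p = 0.0331) or replicate 3 at 12 h (adjusted p = 0.0103). Cdkn2d, an INK4 gene encoding p19, rose by 0.35 at 12 h (adjusted p = 0.00232) and 0.37 at 24 h (adjusted p = 0.00181). Cdkn2b, the INK4 gene for p15, rose by 0.40 at 24 h (adjusted p = 0.00933) from 5.87 ± 0.418 CPM at 0 h. Cdkn2a, from which both p16 and ARF are made, had 196 ± 2.18 CPM at 0 h and differed by 0.064 at 12 h on the log2 scale (adjusted p = 0.193).

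In the list of 13 genes that assemble, activate or degrade cyclin D complexes and p27, 1 was higher and 3 were lower at both times. By DESeq2, 1 was higher and 3 were lower at 12 h, and 1 was higher and 2 were lower at 24 h. At an unadjusted p under 0.05, 2 were higher and 3 were lower at each time. The median log2 fold change was 0.0096 at 12 h and -0.0051 at 24 h. Cks1b, the cofactor through which SKP2 recognizes p27, rose by 0.26 at 12 h (adjusted p = 0.000135) and 0.28 at 24 h (adjusted p = 9.97e-05). Fbxo31, an F-box protein that targets cyclin D1, fell by 0.22 at 12 h (adjusted p = 0.000556) and by 0.18 at 24 h (adjusted p = 0.00346). Ddb1, an adaptor of CUL4 ubiquitin ligases, fell by 0.14 (adjusted p = 0.00514) and by 0.15 (adjusted p = 0.00340). The remaining lower calls were Rnf123 at 12 h (-0.19, adjusted p = 0.0283) and Cdk7 at 24 h (-0.15, adjusted p = 0.0487). Genes on the opposite strand cover 18.0% of the Rnf123 exons, and its call was lost in 3 of 9 fits that left out 1 library. The Cdk7 call was lost in 7 of these 9. It was also lost with DESeq2 (adjusted p = 0.0690), its size factors inside edgeR (adjusted p = 0.0545) and total counts (adjusted p = 0.0581). Between 12 h and 24 h none of the 13 passed with edgeR or DESeq2, and 1 had an unadjusted p under 0.05.

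Of 11 genes for the MuvB and DREAM complexes and proteins that act with them, 5 were higher and 1 was lower at 12 h, and 5 were higher at 24 h. No gene of the list was lower at 24 h by edgeR or DESeq2, and 1 was lower at an unadjusted p under 0.05. The list median was 0.17 and 0.14. Mybl2, the B-MYB partner that MuvB takes up when cells leave quiescence, was at 22.3, 25.2 and 25.1 CPM at 0 h, then at 41.3, 46.1 and 42.3 CPM (12 h) and 37.7, 36.0 and 39.7 CPM (24 h). All later libraries were above all 0 h libraries, with a log2 fold change of 0.83 ± 0.062 at 12 h (adjusted p = 1.85e-07) and 0.64 ± 0.062 at 24 h (adjusted p = 2.40e-06). Lin54, the DNA-binding subunit of MuvB, rose by 0.39 at 12 h (adjusted p = 0.00106) and 0.63 at 24 h (adjusted p = 1.40e-05). Lin9, another MuvB subunit, rose by 0.35 (adjusted p = 0.0143) and 0.53 (adjusted p = 0.000858), E2f4, the E2F that pairs with p107 and p130, by 0.21 (adjusted p = 0.000858) and 0.14 (adjusted p = 0.0178), and Tfdp1, an E2F dimer partner, by 0.17 (adjusted p = 0.00717) and 0.15 (adjusted p = 0.0245). Leaving out 1 library lost the Lin9 call at 12 h in 3 of 9 fits, the E2f4 call at 24 h in 2 and the Tfdp1 call at 24 h in 5. Tfdp2, a second dimer partner, fell by 0.27 at 12 h (adjusted p = 0.000121) and was 0.18 higher at 24 h than at 12 h (adjusted p = 0.0185), the latter lost in 3 of 9 such fits.

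In the list of 21 genes that E2F factors drive and RB family proteins hold down, 19 were higher at 12 h and 18 at 24 h. None was lower, and the median log2 fold changes were 0.52 and 0.50. By DESeq2 also 19 and 18 were higher and none was lower, and at an unadjusted p under 0.05 none was lower. Cdc6, a licensing factor for replication origins, rose by 0.77 at 12 h (adjusted p = 9.16e-06). Rrm2, a subunit of ribonucleotide reductase, rose by 0.74 at 12 h (adjusted p = 1.44e-07) and 0.71 at 24 h (adjusted p = 2.94e-07), and Ccna2, which encodes cyclin A2, rose by 0.67 at 24 h (adjusted p = 3.43e-07), with 12.5% of its exons under a gene on the opposite strand. The cyclin E gene Ccne1 (0.20, adjusted p = 0.271) and the phosphatase gene Cdc25a (0.076, adjusted p = 0.380) were the 2 that did not pass at 12 h. At 24 h these 2 and Ccne2, the second cyclin E gene (0.14, adjusted p = 0.226), did not pass. Ints8, on the opposite strand, overlaps 17.4% of the Ccne2 exons. None of the 21 passed between 12 h and 24 h with edgeR or DESeq2, and 7 had an unadjusted p under 0.05. E2F letters were found in windows of 10 of the 17 genes of this list that had one. Among those 10 genes 9 passed at 12 h (median log2 fold change 0.52), and 6 passed among the 7 whose windows lacked the letters (median 0.52).

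Of 9 transcription factor genes known to act on Ccnd1, Ccnd2 or Cdkn1b, 3 were higher and 1 was lower at 12 h, and 1 was higher and 1 lower at 24 h. Fosl1, which encodes the AP-1 protein FRA1, rose by 0.61 at 12 h (adjusted p = 2.24e-06) and fell by 0.50 from 12 h to 24 h (adjusted p = 0.000171). A gene on the opposite strand covers 57.2% of the Fosl1 exons, so its counts are uncertain. Junb, another AP-1 gene, rose by 0.41 at 12 h (adjusted p = 8.54e-06) and 0.18 at 24 h (adjusted p = 0.0123), and fell by 0.23 from 12 h to 24 h (adjusted p = 0.00731). Without replicate 3 at 0 h or replicate 1 at 24 h the 24 h call of Junb was lost (0.14, adjusted p = 0.0654, and 0.17, adjusted p = 0.0505), as was the last call without replicate 3 at 24 h (-0.21, adjusted p = 0.0589). Jun rose by 0.27 at 12 h (adjusted p = 0.00153). Foxo4, a FOXO factor of the family that activates Cdkn1b, fell by 0.20 at 12 h (adjusted p = 0.00399) and by 0.14 at 24 h (adjusted p = 0.0463), the latter lost in 6 of 9 fits that left out 1 library. Myc had 71.0 ± 3.50 CPM at 0 h, and its log2 fold change was -0.16 at 12 h (adjusted p = 0.113) and 0.24 from 12 h to 24 h (adjusted p = 0.0596). Without replicate 3 at 12 h both passed (-0.24, adjusted p = 0.00736, and 0.32, adjusted p = 0.00292), as they did without a filter (adjusted p = 0.0119 and 0.00012). The change from 12 h to 24 h also passed with DESeq2 (adjusted p = 0.0290), total counts (adjusted p = 0.0308) and the replicate number as a block (adjusted p = 0.0340). Whether the Myc row takes up reads of the MYC transgene was not tested.

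**Figure D5:**
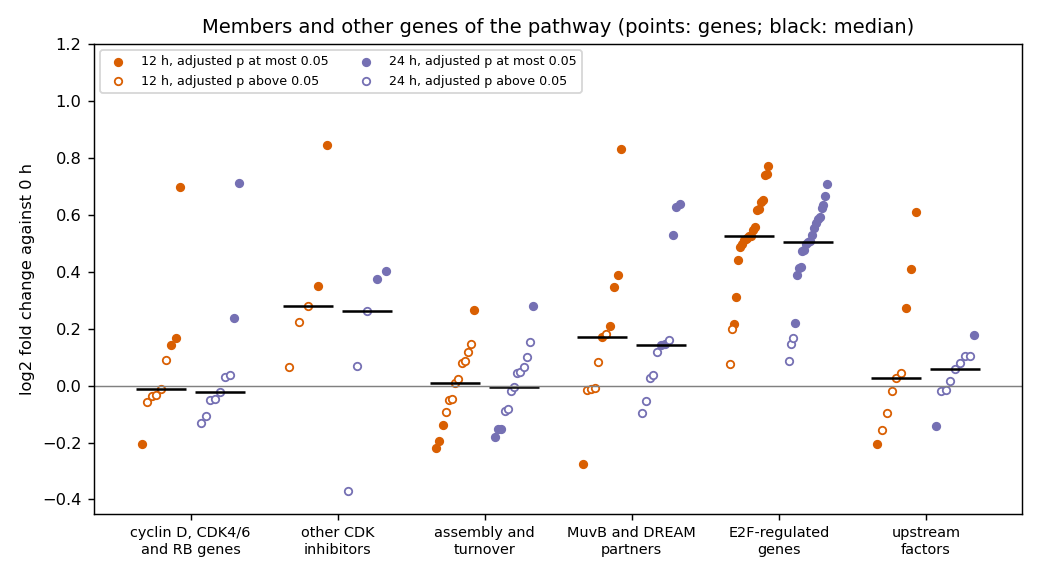
Log2 fold change against 0 h of each tested gene in the group of 9 and in the 5 lists, at 12 h (orange) and 24 h (purple), with filled points for an adjusted p of at most 0.05 and a black line at each median. The E2F-regulated list has medians of 0.52 and 0.50, and the 9 genes have medians of -0.011 and -0.021 with Rbl1 far above the rest.

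Genes whose pattern over the 9 libraries was most like that of the 3 genes with the smallest p over all times were ranked by Pearson's r of log2 CPM among 8412 genes. For Rbl1 these were Mms22l (r = 0.990), Gpsm2 (r = 0.989) and Gpd2 (r = 0.986). For Rbl2 they were Rnf169 (r = 0.986), Wwc1 (r = 0.983) and Lipe (r = 0.978), and for Ccnd1 they were Noc4l (r = 0.966), Sephs2 (r = 0.961) and Mboat1 (r = 0.951). These values describe 9 libraries that form 3 groups by time, and the genes of a library share its depth.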

How the data were processed

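Adaptor-trimmed paired-end 150 bp reads were aligned by the authors to GRCm38 with STAR and counted per gene with featureCounts. The deposited values are raw counts per gene without normalization. The strand setting of the counting was not given in the sources used here, so reads of overlapping genes on opposite strands cannot be told apart. Overlaps are named where they cover over 10% of a gene's exons.

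Counts were filtered with filterByExpr and scaled by TMM in edgeR 4.0.16 (R 4.3.3), leaving 11373 of 15552 genes. The 9 libraries were fitted together without covariates, and times were compared with the quasi-likelihood F-test, with Benjamini-Hochberg adjustment over all genes tested. A gene passed at an adjusted p of at most 0.05. The fold threshold of 1.5 follows the study's methods. SE are the fold change divided by the square root of F, and 95% intervals use the same fit. CPM used TMM-scaled library sizes, and log2 CPM a prior count of 2. CPM per kb used the union of exons in GENCODE vM21, while the authors counted with vM24, so per kb levels and shares rest on the earlier release. The 89 list and marker genes in the count table had the same spans there as in the file. Upstream sequences were taken from a RefSeq table of GRCm38.p6. The fit was also run on counts simulated from the mean levels and fitted dispersions of these libraries. Such counts cannot show whether the model fits the libraries themselves.

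Samples were grouped by the labelled time. The 10 genes and the lists were chosen with earlier results of these data known. All 10 genes were named. From each list and comparison the rule named the 2 passing genes with the largest absolute log2 fold change, and the 3 most similar genes, with a mean of at least 10 CPM, for the 3 genes with the smallest p over all times. Some of the cell type markers are not reported here. Alternatives were DESeq2 1.42.0, its size factors inside edgeR, total counts, no filter, only the 2 groups compared, the replicate number as a block, each library left out, and shares without division by length.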

Additional observations from a re-analysis of the deposited data

How the results depend on the processing

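None of the 405 log2 fold changes of the 9 tested genes under alternative settings changed sign with a call on either side, and 395 kept both direction and side of the threshold, while 3 lost and 7 gained a call. The number of these genes that passed was 3 to 5 at 12 h and 2 to 3 at 24 h when 1 library was left out. Between 24 h and 12 h it was 1 with DESeq2 and 0 to 2 with 1 library left out (2 without replicate 3 at 12 h), and over all times it was 3 to 5 (3 without replicate 2 at 12 h). Over all genes, the 572 that passed between 24 h and 12 h became 950 without a filter and 214 to 879 with 1 library left out (214 without replicate 1 and 879 without replicate 3 at 12 h), and the 33 at 1.5-fold became 53 without a filter and 16 to 36 with 1 library left out. Among the lists, the MuvB count from 12 h to 24 h was 1, and 3 without a filter. No E2F-regulated gene passed in that comparison, and 4 did without a filter. The cause was not tested. Whether replicate numbers pair the libraries cannot be decided from so few libraries per time. Of 9 correlations between same-numbered libraries 1 exceeded 0.1 (range -0.074 to 0.13), and those between other libraries ranged from -0.13 to 0.12. With the replicate number as a block, 4, 2 and 0 of the 9 genes passed at 12 h, at 24 h and between them, and 4 over all times; over all genes 2956, 2039 and 609 passed. Without division by length, the shares at 0, 12 and 24 h were 75.3%, 75.0% and 77.9% for Ccnd1, 70.2%, 72.0% and 69.3% for Cdk4, 78.7%, 79.3% and 78.8% for Cdkn1b, 23.6%, 22.6% and 21.1% for Rb1, 16.5%, 26.3% and 26.1% for Rbl1, and 60.0%, 51.0% and 52.8% for Rbl2, as the construction of that setting implies. Ccnd2 was not tested, and differences below its count limit were not detectable.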
